A study of Mus musculus with 6 samples.

Results

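Ribosome biogenesis factors are the proteins that make ribosomes without being part of them. The genes described here are 37 of the 57508 genes in the deposited tables. They were chosen by symbol as proteins of small nucleolar ribonucleoprotein particles (snoRNPs), subunits of RNA polymerase I and factors that process the precursor of ribosomal RNA. All 37 were found in both tables, and all 37 passed the filter on low counts. RNA was sequenced in KPC1199 cells, a mouse line that the labels call pancreatic tumour cells. The 3 libraries of genotype WT carry names with siACSL5_CY3, and the 3 of genotype ACSL5 knockdown carry names with siACSL5_2260 and titles that say KO. The labels do not explain these name endings, and give no dose, time or further agent. Whether libraries of 1 group are separate cultures is not labelled, so p-values here measure only the spread between libraries, which may be technical. All values come from 1 cell line, and a bulk library cannot tell a change in every cell from a change in some of the cells.

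Ribosomal RNA is transcribed in the nucleolus by RNA polymerase I as 1 long precursor. Box C/D snoRNPs then methylate the sugar of chosen bases and box H/ACA snoRNPs turn chosen uridines into pseudouridine, each led to its site by a small nucleolar RNA. A large particle, the small subunit processome, folds and cuts the part that becomes the small subunit, while separate factors, among them the Pes1-Bop1-Wdr12 complex, mature the large subunit. Many of these genes are known targets of the transcription factor MYC and are active in growing and tumour cells.

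Library totals lay between 21794244 and 29996194 expected counts. Acsl5, the targeted gene, stood at 342.4, 265.2 and 270.2 CPM (counts scaled to library size with TMM factors) in WT replicates 1, 2 and 3. In knockdown replicates 1, 2 and 3 it stood at 49.8, 55.6 and 57.2 CPM, 18.5% of the WT mean, and the groups did not overlap. By an exact two-sided permutation test p was 0.10, and no lower p is possible with 3 libraries a group. All 6 epithelial markers reached 1 CPM in some library, and their sum lay between 6974 and 13158 CPM in WT and between 7221 and 7399 CPM in knockdown libraries. Of the markers of other cell types, 3 of 6 fibroblast, 1 of 6 leukocyte and 0 of 3 endothelial genes reached 1 CPM. Their sums were 61.2 to 115.8 CPM for fibroblast, 3.33 to 4.43 CPM for leukocyte and 0.133 to 0.273 CPM for endothelial markers in WT libraries. In knockdown libraries the sums were 88.4 to 94.1, 4.74 to 5.39 and 0.221 to 0.252 CPM in the same order. Lum, Adgre1, Cd3e and Cdh5 were at 0 in all 6 libraries. The part of these cell types in the results below was not tested.

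Of the 6 libraries, WT replicate 1 was unlike the rest. Across genes its log2 CPM correlated with that of the other 5 at 0.920 to 0.935, while those 5 correlated with one another at 0.981 to 0.997. Over the 37 genes its departure from WT replicates 2 and 3 followed gene length, with a Spearman correlation of -0.709 and a Pearson correlation of -0.733 against log2 length. Over 12979 genes of at least 1 CPM the Spearman correlation was -0.651. These are descriptions across genes of 1 library, and genes are not replicates. Of the 12 ribosome biogenesis genes shorter than 2000 bases, 10 were higher in WT replicate 1 than the mean of the other WT libraries, and 8 of these by more than 1.5 times. Of the 9 longer than 4000 bases, 7 were lower. The exceptions among the long genes were Ncl and Nop58. These lengths are those listed in the deposited table. Annotated coding transcripts are as short as 661 bases for Ncl and 461 for Nop58, but also 193 for Heatr1 and 657 for Utp20, which were lower. Which transcripts the cells used was not tested. Counts, medians and the genes described in full are therefore given both with all 6 libraries and without WT replicate 1, a comparison of 2 WT with 3 knockdown libraries. Log2 fold changes given alone are from the comparison without it.

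**Figure D1:**
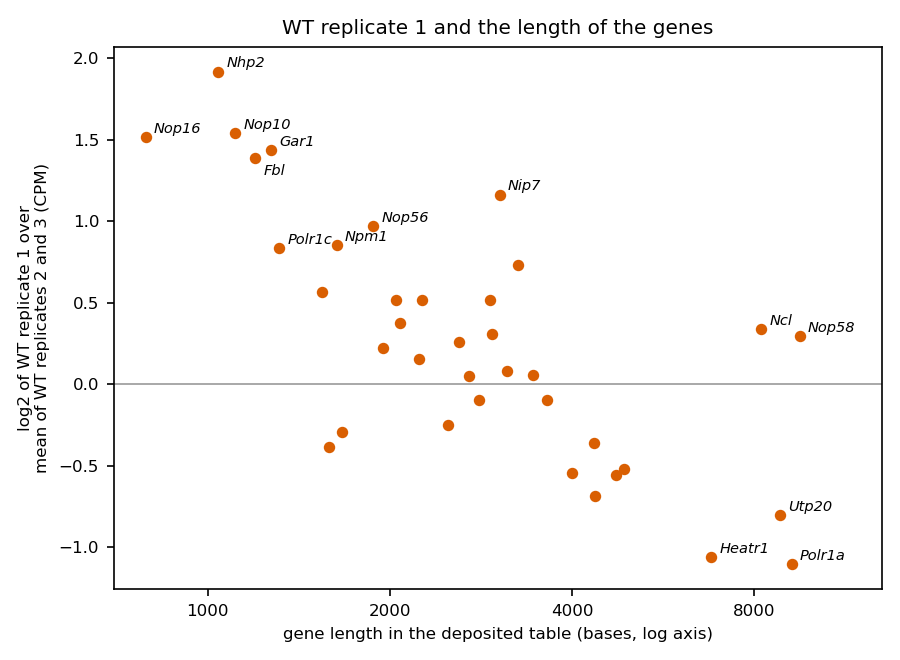
Each point is 1 of the 37 genes, placed by its length in the deposited table (bases, log axis) and by the log2 ratio of its CPM in WT replicate 1 to the mean of WT replicates 2 and 3. Of the 12 genes under 2000 bases, 10 lie above 0, and of the 9 over 4000 bases, 7 lie below it.

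Without WT replicate 1, the RNA of most ribosome biogenesis factors rose by a small amount in the knockdown cells. Of the 37 genes, 24 were called higher, 3 were called lower and 10 were not called (edgeR quasi-likelihood test, adjusted p below 0.05 over 15152 genes). The 24 are 64.9% of the members, where 16.3% of all genes tested were called higher. The 3 lower genes are 8.11% of the members, where 18% of all genes were called lower. In either direction, 34.3% of all genes were called. The median log2 fold change was 0.22 over the members and -0.01 over all genes tested. It was positive for 32 members and negative for 5, with a range from -0.39 (Npm1) to 0.98 (Nhp2). Only Nhp2, Ppan and Utp4 reached a log2 fold change of 0.5 in either direction, a size that 22.4% of all genes reached. All 3 knockdown libraries lay above both WT libraries for 30 members and below both for 4, where 30.4% of all genes did the first and 29.3% the second.

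With all 6 libraries no gene was called, among 14679 tested, and the background is therefore 0%. At an unadjusted p below 0.05 there were 2351 genes (16.0%), 10 of them members. Ppan had the lowest p of the members, 9.72e-04, with an edgeR adjusted p of 0.106. DESeq2 on the 6 libraries called 3 members higher, Nop14, Utp4 and Ppan, and none lower, where it called 2.47% of all genes higher and 2.31% lower (4.78% in all). With each library's trend with gene length removed, Mybbp1a, Nop14 and Utp4 were called higher and Npm1 lower, where 2.95% and 3.04% of all genes were called in those directions (5.99% in all). The median log2 fold change of the members was 0.10 and that of all genes -0.02. All knockdown libraries lay above all 3 WT libraries for 16 members (18.7% of all genes did so) and below them for 3, Nop10, Npm1 and Ddx18 (15.6% of all genes). Of the 24 genes called higher without WT replicate 1, 21 had a positive and 3 a negative log2 fold change with it. For 9 of the 24, WT replicate 1 lay above the highest knockdown library. As no member was called by edgeR with 6 libraries, the counts of called genes by step below are from the comparison without WT replicate 1. They are read against its 16.3% of all genes called higher and 18% called lower. Counts by step of genes whose knockdown libraries lay above or below all 3 WT libraries are read against the 18.7% and 15.6% of all genes.

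**Figure D2:**
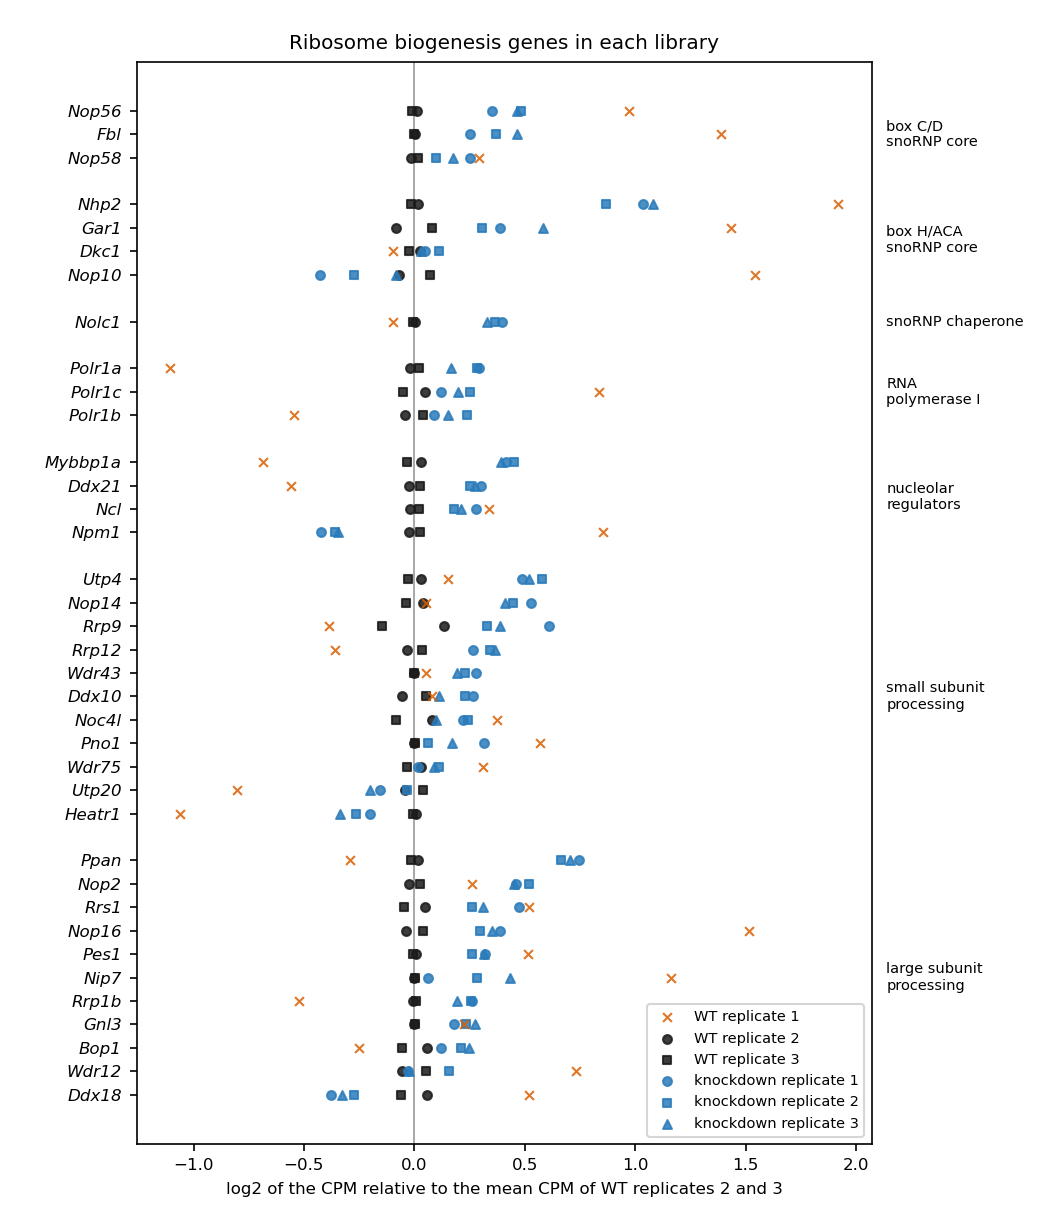
Rows are the 37 genes by step, and points give the log2 of each library's CPM relative to the mean of WT replicates 2 and 3, with 1 symbol per library. The knockdown libraries lie to the right of both dark WT symbols for 30 genes, while the crosses of WT replicate 1 range from below -1 for Polr1a and Heatr1 to near 2 for Nhp2.

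All 3 genes of the box C/D snoRNP core rose without WT replicate 1, with a median of 0.35. With all 6 libraries the median was 0.04 and the groups overlapped for all 3. Nop56, which encodes one of the paired scaffold proteins of this particle, stood at 287.4 and 283.6 CPM in WT replicates 2 and 3 and at 364.5, 399.3 and 394.2 CPM in the knockdown libraries. WT replicate 1, at 559.0 CPM, was above all of them. Without it the log2 fold change was 0.42 (SE 0.054, edgeR adjusted p = 2.39e-04), and with it 0.04. Nop58, the partner of Nop56 in the scaffold, had 171.2 and 175.2 CPM in WT replicates 2 and 3 against 205.9, 185.1 and 195.4 CPM in knockdown libraries. The knockdown libraries lay above those WT libraries, by a log2 fold change of 0.16 (SE 0.051, edgeR adjusted p = 0.0345), and WT replicate 1 was higher still at 212.4 CPM. Fbl encodes fibrillarin, the methyltransferase of the particle. It had 128.2 and 128.0 CPM in WT replicates 2 and 3 against 152.3, 165.6 and 177.0 CPM in the knockdown libraries, a log2 fold change of 0.35 (edgeR adjusted p = 0.00294). WT replicate 1 had 335.1 CPM of Fbl, above every knockdown library, and with it the log2 fold change was -0.26. Per length, the ratio of Nop56 to Nop58 in TPM (the deposited scale, which divides by length) was 1.34 and 1.27 in WT replicates 2 and 3, 1.56, 1.63 and 1.62 in knockdown libraries, and 1.89 in WT replicate 1.

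The box H/ACA core had the widest range of log2 fold changes of the steps, from -0.27 to 0.98 without WT replicate 1. Of its 4 genes 2 rose without WT replicate 1, Nhp2 and Gar1, and 2 were not called, Dkc1 and Nop10. The median was 0.23, and -0.082 with all 6 libraries. Nhp2, which encodes a core protein that binds the guide RNA, stood at 62.0 and 60.7 CPM in WT replicates 2 and 3 and at 125.5, 111.9 and 129.8 CPM in the knockdown libraries. The groups were far apart, with a log2 fold change of 0.98 (SE 0.068, edgeR adjusted p = 7.59e-06), a 1.98-fold rise and the highest of the 37. In WT replicate 1 the level was 231.7 CPM, above every knockdown library, and with it the log2 fold change was 0.05. Gar1, which helps load and release the target RNA, had 27.97 and 31.3 CPM in WT replicates 2 and 3 against 38.8, 36.6 and 44.3 CPM in knockdown libraries. Its log2 fold change was 0.41 (edgeR adjusted p = 0.00767). WT replicate 1 had 80.1 CPM of Gar1, and with it the value was -0.22. Gar1 was not called with each library's GC trend removed.

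Nop10, a small protein that bridges the enzyme and Nhp2, was the only one of the 8 snoRNP protein genes, Nolc1 included, with a negative value without WT replicate 1. It stood at 52.2 and 57.5 CPM in WT replicates 2 and 3 and at 40.8, 45.4 and 51.7 CPM in knockdown libraries. The highest knockdown library lay just below the lowest of these WT libraries, and the log2 fold change of -0.27 was not called (SE 0.104, edgeR adjusted p = 0.0821). The level in WT replicate 1 was 159.6 CPM, above all other libraries, and with it the log2 fold change was -0.96 (edgeR adjusted p = 0.36). Dkc1 encodes dyskerin, the pseudouridine synthase itself, and had 87.1 and 84.3 CPM in WT replicates 2 and 3 against 88.7, 92.5 and 87.5 CPM in knockdown libraries, a log2 fold change of 0.05 that was not called. In TPM, Nhp2 was at 1.29 and 1.15 times Nop10 in WT replicates 2 and 3, and at 3.38, 2.68 and 2.73 times Nop10 in knockdown libraries. WT replicate 1, at 1.81, lay between the groups. Nhp2 was at 1.63 and 1.65 times Dkc1 in WT replicates 2 and 3, at 3.69, 2.33 and 3.20 times in knockdown libraries and at 9.53 times in WT replicate 1. The proteins of this particle assemble in equal numbers, as background, and these ratios are of RNA only.

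The gene of Nhp2 lies on chromosome 11, positions 51619735 to 51623714 on the plus strand (GENCODE M21, GRCm38). It shares 44 exonic bases, 3.84% of its own, with Rmnd5b on the opposite strand, whose log2 fold change of 0.17 was not called (edgeR adjusted p = 0.156). Whether the counting used strand is not given in the sources used here. In all, 15 of the 37 genes share exonic bases with a gene on the opposite strand. The promoter of Nhp2, from 250 bases before the RefSeq start to 50 after it (chr11:51619523-51619822, plus strand, GRCm38.p6), is shown because it belongs to the gene with the highest fold change. The capitals mark CCGGAAG, a sequence of the kind bound by ETS transcription factors.
Nhp2: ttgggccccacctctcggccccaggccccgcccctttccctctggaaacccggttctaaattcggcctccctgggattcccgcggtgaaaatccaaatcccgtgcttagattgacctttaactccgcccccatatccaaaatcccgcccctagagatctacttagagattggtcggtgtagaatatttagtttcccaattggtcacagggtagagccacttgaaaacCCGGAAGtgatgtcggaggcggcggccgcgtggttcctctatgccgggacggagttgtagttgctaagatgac

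Nolc1, a chaperone that accompanies both kinds of snoRNP through the nucleus, was higher in all knockdown libraries than in any WT library. It had 203.1, 218.0 and 216.7 CPM in WT replicates 1, 2 and 3 against 285.8, 280.3 and 272.9 CPM in knockdown libraries. The log2 fold change was 0.35 (SE 0.043, edgeR adjusted p = 1.93e-04) without it and 0.40 with it, where it was not called.

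Of the 3 subunit genes of RNA polymerase I, 1 rose and 2 were not called. The median was 0.18 without WT replicate 1 and 0.32 with all 6 libraries. Polr1a, the largest subunit, had 167.2 and 171.7 CPM in WT replicates 2 and 3 against 207.6, 206.2 and 189.9 CPM in knockdown libraries. The knockdown libraries were all higher, by a log2 fold change of 0.23 (SE 0.050, edgeR adjusted p = 0.00484). WT replicate 1 had 78.7 CPM of this long transcript, and with it the value was 0.53 and not called. Polr1b, the second largest subunit, had 49.96 and 52.8 CPM in WT replicates 2 and 3 against 54.6, 60.6 and 57.0 CPM in knockdown libraries, a log2 fold change of 0.14 (edgeR adjusted p = 0.116) and of 0.32 with WT replicate 1, which had 35.3 CPM. Polr1c, a subunit shared with RNA polymerase III, was at 0.18 (edgeR adjusted p = 0.0513) and at -0.14 with WT replicate 1.

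The nucleolar regulators split into 3 genes that rose and 1 that fell, with a median of 0.23 and of 0.27 with all 6 libraries. Npm1 encodes nucleophosmin, an abundant protein that holds the outer layer of the nucleolus together and chaperones ribosome assembly. It stood at 1153 and 1191 CPM in WT replicates 2 and 3 and at 873.6, 914.1 and 920.9 CPM in knockdown libraries. WT replicate 1 had 2120 CPM, so that all 3 knockdown libraries lay below all 3 WT libraries. The log2 fold change was -0.39 (SE 0.045, edgeR adjusted p = 1.32e-04) without WT replicate 1, the lowest of the 37, and -0.72 with it, where it was not called. Npm1 lies on chromosome 11, positions 33152287 to 33163206 on the minus strand.

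Ncl, which encodes nucleolin, the other very abundant nucleolar protein, moved the other way. It was at 1264 and 1297 CPM in WT replicates 2 and 3 and at 1553, 1450 and 1484 CPM in knockdown libraries, a log2 fold change of 0.21 (edgeR adjusted p = 0.00363). Ncl had 1618 CPM in WT replicate 1, above every knockdown library, and with it the value was 0.10. In TPM the ratio of Npm1 to Ncl was 1.95, 1.92 and 1.91 in WT replicates 1, 2 and 3 against 1.38, 1.45 and 1.34 in knockdown libraries. The WT libraries, replicate 1 included, agreed closely in this TPM ratio and did not overlap the knockdown libraries. The close agreement did not hold in CPM. There Npm1 was above Ncl in WT replicate 1 (2120 against 1618) and below it in WT replicates 2 (1153 against 1264) and 3 (1191 against 1297). Mybbp1a, a nucleolar protein that binds the MYB transcription factor and takes part in precursor processing, had 439.1 and 420.5 CPM in WT replicates 2 and 3 against 573.5, 588.1 and 564.5 CPM in knockdown libraries. WT replicate 1 was lower, at 267.4 CPM. The log2 fold change was 0.41 (SE 0.045, edgeR adjusted p = 1.05e-04) without it and 0.61 with it. Ddx21, an RNA helicase that links transcription by RNA polymerases I and II, rose by 0.26, and was at 0.44 with WT replicate 1, where it was not called.

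The 11 factors of small subunit processing counted 6 higher, 1 lower and 4 not called, with a median of 0.19. With all 6 libraries the median was 0.18, and the knockdown libraries lay above every WT library for 6 genes and overlapped them for 5. Utp4, a protein of the complex that first binds the growing precursor, had 86.0, 78.8 and 75.8 CPM in WT replicates 1, 2 and 3 against 108.2, 115.3 and 110.6 CPM in knockdown libraries. The groups did not overlap with all 6 libraries. The log2 fold change was 0.51 (SE 0.054, edgeR adjusted p = 8.53e-05) without WT replicate 1 and 0.47 with it. Nop14 (0.45), a processome protein needed for cuts around the small subunit RNA, Rrp9 (0.43), a protein of the U3 snoRNP, and Rrp12 (0.31), which acts in export of the precursors, also rose. So did Wdr43 (0.22), a partner of Utp4, and the helicase gene Ddx10 (0.19, edgeR adjusted p = 0.0498, just past the threshold). Nop14 had 80.2, 79.5 and 75.4 CPM in WT replicates 1, 2 and 3 against 111.8, 105.4 and 102.8 CPM in knockdown libraries, and for Nop14, Rrp9, Rrp12, Wdr43 and Ddx10 the groups did not overlap with all 6 libraries either. Rrp9, between 14.0 and 27.9 CPM in the 6 libraries, was not called with each library's GC trend removed. Noc4l (0.17), Pno1 (0.17), Wdr75 (0.06) and Utp20 (-0.14) were not called.

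Heatr1, a large scaffold of the processome also known to act in transcription by RNA polymerase I, was called lower. It stood at 74.6 and 73.9 CPM in WT replicates 2 and 3 and at 64.7, 61.8 and 58.8 CPM in knockdown libraries. Those groups did not overlap, and the log2 fold change was -0.28 (SE 0.055, edgeR adjusted p = 0.00266). WT replicate 1 had 35.6 CPM, below every knockdown library, and with it the value was 0.01. In TPM the groups overlapped, with 23.7 and 24.5 in WT replicates 2 and 3 against 23.3, 21.1 and 24.5 in knockdown libraries. The difference was not called on log2(TPM + 1), at -0.07 (limma adjusted p = 0.578). With all 6 libraries neither Nhp2 (0.05) nor Heatr1 (0.01) was called. The promoter of Heatr1 (chr13:12395125-12395424, plus strand, GRCm38.p6) is shown for comparison with that of Nhp2. It holds CCGGAAG (capitals) as well, and the gene moved the other way in the comparison without WT replicate 1.
Heatr1: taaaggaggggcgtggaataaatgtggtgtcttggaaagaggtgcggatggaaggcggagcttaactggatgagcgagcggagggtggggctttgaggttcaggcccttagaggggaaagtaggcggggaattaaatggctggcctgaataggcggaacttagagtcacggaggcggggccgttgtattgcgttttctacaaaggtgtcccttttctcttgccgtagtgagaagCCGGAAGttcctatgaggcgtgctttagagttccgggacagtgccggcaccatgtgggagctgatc

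The 11 factors of large subunit processing counted 8 higher, 1 lower and 2 not called, with a median of 0.25. With all 6 libraries the median was 0.15, and the knockdown libraries lay above every WT library for 4 genes, below for 1 and overlapped for 6. Ppan, which encodes a factor for early cuts of the large subunit precursor, stood at 33.4, 41.2 and 40.4 CPM in WT replicates 1, 2 and 3 and at 68.4, 64.6 and 66.6 CPM in knockdown libraries. Every knockdown library lay well above every WT library. The log2 fold change was 0.69 (SE 0.057, edgeR adjusted p = 1.85e-05) without WT replicate 1 and 0.80 with it, the highest of the 37 in that fit. Nop2 (0.46), a cytosine methyltransferase of the large subunit RNA, also rose, from 118.2 and 122.3 CPM in WT replicates 2 and 3 to 165.4, 172.4 and 164.2 CPM in knockdown libraries, with 144.1 CPM in WT replicate 1. The promoter of Ppan (chr9:20887925-20888224, plus strand, GRCm38.p6) is shown because its groups were apart in all 6 libraries. The capitals mark TTTATAAA, in which TATAAA and its reverse complement overlap, and CCGGAAG.
Ppan: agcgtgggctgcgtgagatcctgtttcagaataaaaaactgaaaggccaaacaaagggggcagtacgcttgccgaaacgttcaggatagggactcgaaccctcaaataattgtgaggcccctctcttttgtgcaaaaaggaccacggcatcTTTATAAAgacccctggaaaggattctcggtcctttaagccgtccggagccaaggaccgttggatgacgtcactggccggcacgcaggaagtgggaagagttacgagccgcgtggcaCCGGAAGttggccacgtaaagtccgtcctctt

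The genes of the Pes1-Bop1-Wdr12 complex, which joins the large subunit precursor early, had unlike estimates of the log2 fold change. Pes1 rose by 0.28 (edgeR adjusted p = 9.42e-04) and Bop1 by 0.18 (edgeR adjusted p = 0.0418), while Wdr12 was at 0.02 (edgeR adjusted p = 0.857). The differences between these 3 values were not tested. Pes1 had 206.2 CPM in WT replicate 1, above its knockdown libraries of 180.1, 173.1 and 179.9 CPM, and with that library it was at 0.11. With each library's GC trend removed the order changed, with Pes1 at 0.30, Wdr12 at 0.17 (not called) and Bop1 at -0.04. The exons of Bop1 share 50 bases with Mroh1 on the opposite strand, which was called lower (-0.28). Rrs1 (0.34), which brings the 5S particle to the precursor, Rrp1b (0.22), a nucleolar protein, and Gnl3 (0.21), which encodes nucleostemin, also rose. With WT replicate 1 these were at 0.16, 0.39 and 0.15 and not called, and for Rrs1 that library, at 72.6 CPM, lay above every knockdown library. Nop16, a small nucleolar protein with the shortest listed length of the 37 in the deposited table, 790 bases, had 29.6 and 31.1 CPM in WT replicates 2 and 3 against 39.7, 37.2 and 38.7 CPM in knockdown libraries. Its log2 fold change was 0.33 (edgeR adjusted p = 0.00397), and with WT replicate 1, at 86.7 CPM, it was -0.35. Nip7, which binds the large subunit precursor, was at 0.25 and not called (edgeR adjusted p = 0.111).

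Ddx18, an RNA helicase of the large subunit pathway, was the member of this step that fell. It stood at 151.5, 110.2 and 101.4 CPM in WT replicates 1, 2 and 3 and at 81.4, 87.7 and 84.3 CPM in knockdown libraries. All knockdown libraries lay below all WT libraries. The log2 fold change was -0.34 (SE 0.059, edgeR adjusted p = 0.00146) without WT replicate 1 and -0.52 with it, where it was not called. It was called lower on log2(TPM + 1) as well, at -0.35 (limma adjusted p = 0.0487). Ddx18 lies on chromosome 1, positions 121553835 to 121567989 on the minus strand. Chromosome 1 holds 6 of the 37 genes, and the 37 are spread over 16 chromosomes.

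**Figure D3:**
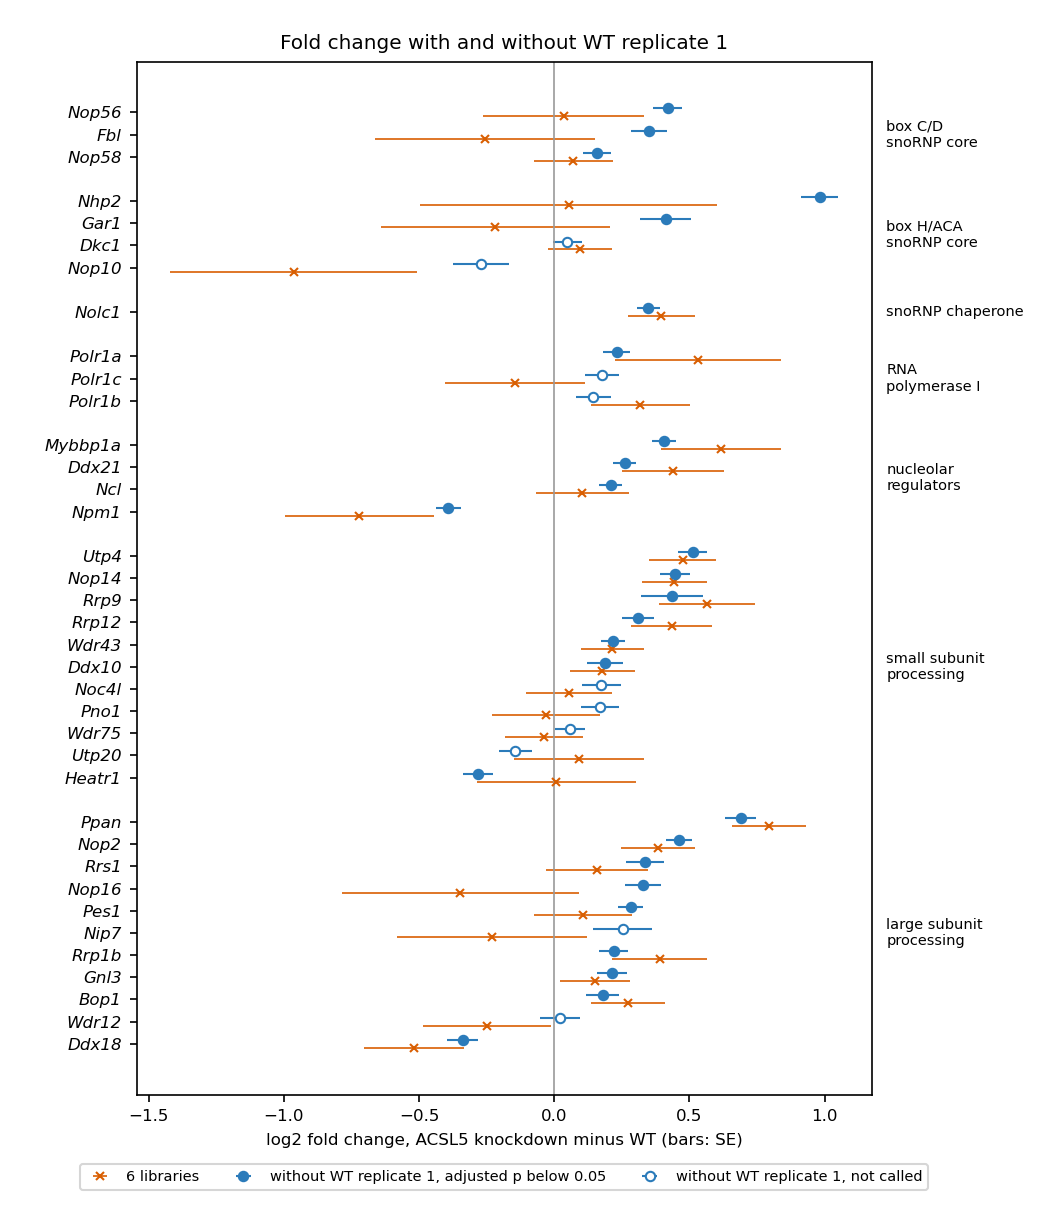
Rows are the 37 genes by step, and points give the log2 fold change of ACSL5 knockdown minus WT with its SE, as crosses for all 6 libraries and as circles without WT replicate 1, filled where called. The circles of 32 genes lie above 0, and the crosses of Fbl, Gar1 and Nop16 lie on the other side of 0 from their filled circles.

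The choice of WT libraries set the sign for 10 members, Fbl, Gar1, Polr1c, Utp20, Wdr75, Heatr1, Pno1, Wdr12, Nop16 and Nip7. The fits differed by more than 0.5 on the log2 scale for Fbl, Nhp2, Nop10, Gar1 and Nop16, all shorter than 2000 bases. The count of 27 members called without WT replicate 1 also leaned on the remaining WT libraries. It was 17 (14 higher, 3 lower) without WT replicate 2 and 18 (15 higher, 3 lower) without WT replicate 3, fits with 1 WT library left, for which the spread of the knockdown libraries stands in. On log2(TPM + 1) it was 14 (12 higher, 2 lower). Over all genes these 3 settings called 3124 (1496 higher, 1628 lower), 2599 (1179 higher, 1420 lower) and 2464 (1459 higher, 1005 lower), against 5193 (2471 higher, 2722 lower). Over the members, the log2 fold change correlated with GC content at a Spearman correlation of 0.551 (n = 37 genes of the same 5 libraries, a description). With each library's GC trend removed, 25 members were called higher and 3 lower, where 15.6% and 16% of all genes were called in those directions, and the median was 0.29. Of these 25, 21 are among the 24 above. Gar1, Rrp9 and Bop1 were no longer called and Dkc1, Wdr75, Pno1 and Nip7 were called.

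Summed over the 37 genes, the members took 0.613% and 0.619% of the counts in WT replicates 2 and 3 against 0.696%, 0.700% and 0.704% in the knockdown libraries. WT replicate 1, at 0.678%, lay between them. Npm1 and Ncl alone made up 40.4% and 41.3% of the members' counts in WT replicates 2 and 3, 46.3% in WT replicate 1 and 36.0%, 35.2% and 35.7% in knockdown libraries. The other 35 genes took 0.364%, 0.365% and 0.363% of the counts in WT replicates 1, 2 and 3 against 0.446%, 0.454% and 0.453% in knockdown libraries. As a share of raw counts, without TMM factors, WT replicate 1 lay with the other WT libraries in this sum, and the groups were apart. CPM are scaled by TMM, with a factor of 0.842 for WT replicate 1 and 1.03 to 1.05 for the other libraries. A lower factor raises the CPM, so in a sum of CPM WT replicate 1 would stand above the other WT libraries and near the knockdown libraries. The separation of the groups in the sum over the other 35 genes therefore holds for raw counts and is not claimed for CPM. On the CPM scale the median log2 ratio of the 37 genes to WT replicates 2 and 3 was 0.26 in WT replicate 1. In the knockdown libraries this median was 0.27, 0.25 and 0.25. The sum and the median are thus on different scales. Per length, the levels in WT replicates 2 and 3 ranged from a mean TPM of 1726 for Npm1 and 902 for Ncl, through 349 for Nop56 and 268 for Nop58, to 14.9 for Rrp12. In the knockdown libraries Npm1 had a mean of 1428 TPM and Ncl 1028.

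Other genes of the pathway, taken from lists of 126 genes, leaned the same way as a whole with a smaller median without WT replicate 1, and little with it. Of the 125 tested without WT replicate 1, 47 rose, 9 fell and 69 were not called (16.3% and 18% of all genes rose and fell), with a median log2 fold change of 0.14. By list, 3 rose and 1 fell of 12 RNA polymerase I subunits and factors, 3 and 1 of 11 snoRNP assembly factors, 16 and 4 of 41 small subunit factors, 21 and 2 of 47 large subunit factors, and 4 and 1 of 14 genes of the exosome and its partners. The list medians in that order were 0.09, 0.16, 0.13, 0.19 and 0.02. The exosome list did not lean, with 7 positive and 7 negative values. Within the polymerase list, Taf1c (0.64, edgeR adjusted p = 0.00565) and Taf1b (-0.46, edgeR adjusted p = 0.0254) moved in opposite directions, although both encode subunits of the selectivity factor SL1. Ubtf, which encodes the factor that opens ribosomal DNA for transcription, rose by 0.15. Ruvbl1, an ATPase of the snoRNP assembly machine, rose by 0.46, and Naf1, the assembly factor that Gar1 later replaces in the H/ACA particle, fell by 0.46. In the processing lists the called extremes were Ngdn (0.69) and Ddx52 (-0.21) for the small subunit and Nop53 (0.56) and Gnl3l (-0.28) for the large subunit. The exosome subunit gene Exosc4 rose by 0.93 (edgeR adjusted p = 0.00233) and the exonuclease gene Xrn2 fell by 0.26. With all 6 libraries the median of the 125 was 0.025 (66 positive, 59 negative). List medians ran from -0.24 for snoRNP assembly and -0.11 for the exosome to 0.045 for the polymerase list. In that fit Taf1c was at 0.56, Taf1b at -0.57, Naf1 at -0.51, Nop53 at 0.33 and Ddx52 at -0.20. Exosc4 was at 0.28, Ruvbl1 at 0.11, Xrn2 at -0.08, Ubtf at 0.05, Ngdn at 0.03 and Gnl3l at 0.01. There edgeR called none of the 125, DESeq2 called Nle1 (0.62, adjusted p = 0.0349), and removal of the length trend called Tcof1 (0.42, edgeR adjusted p = 0.044). Myc stood at 129.1, 80.2 and 70.1 CPM in WT replicates 1, 2 and 3 and at 136.4, 124.7 and 131.7 CPM in knockdown libraries, a log2 fold change of 0.79 without WT replicate 1 (edgeR adjusted p = 2.30e-05) and 0.49 with it (edgeR adjusted p = 0.385).

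**Figure D4:**
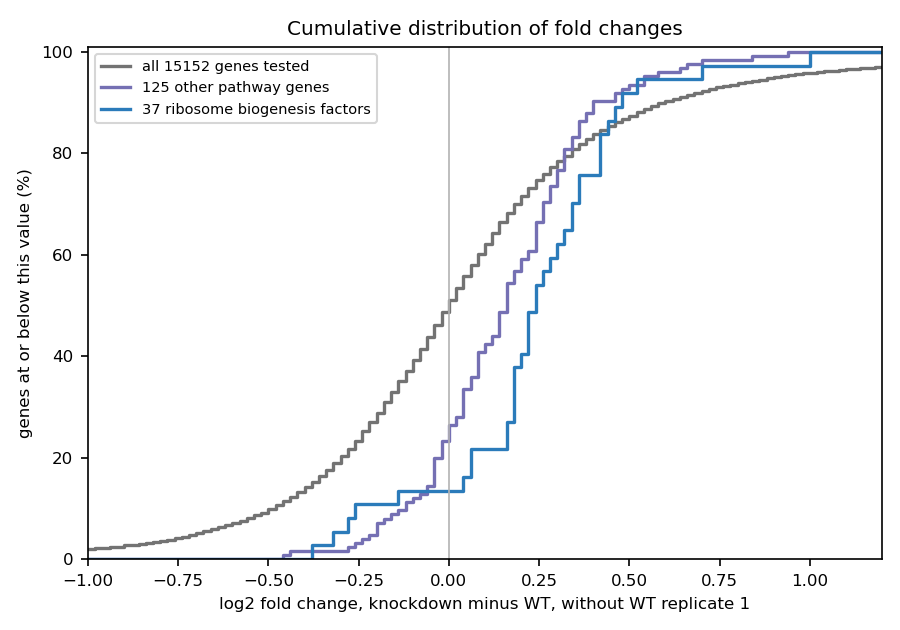
Lines give the cumulative percentage of genes at or below each log2 fold change without WT replicate 1 for the 37 ribosome biogenesis factors, 125 other genes of the pathway and all 15152 genes tested. The medians are 0.22, 0.14 and -0.01, and the members' values range from -0.39 to 0.98, with 13.5% of them at or below 0.

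The promoters were searched for CACGTG, the E-box that MYC with its partner MAX is known to bind, because Myc is a known regulator of these genes. RefSeq promoters (GRCm38.p6) were at hand for 32 of the 37 genes, not for Fbl, Npm1, Rrp12, Bop1 and Rrs1. CACGTG, which reads the same on both strands, was in 7 of the 32 (21.9%), against 8.09% of 27025 genes with a promoter and 11.6% of 10510 of these that were tested. In 6 of the 7 it lay after the start, beginning at base 41 in Mybbp1a, 16 in Utp4, 38 in Utp20, 18 in Wdr43, 38 in Pno1 and 3 in Pes1. In Nop2 it lay 60 bases before the start. The windows around it are shown with CACGTG in capitals, shorter where the promoter ends.
Mybbp1a: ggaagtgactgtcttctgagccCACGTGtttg
Utp4: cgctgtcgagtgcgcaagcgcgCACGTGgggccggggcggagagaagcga
Utp20: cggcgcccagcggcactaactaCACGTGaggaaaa
Wdr43: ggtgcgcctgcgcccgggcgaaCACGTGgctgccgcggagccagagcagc
Pno1: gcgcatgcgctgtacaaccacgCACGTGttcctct
Pes1: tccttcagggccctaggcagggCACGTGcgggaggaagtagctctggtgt
Nop2: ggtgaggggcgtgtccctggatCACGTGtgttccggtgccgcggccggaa

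The windows lie at chr11:72441345-72441376 for Mybbp1a, chr8:106893633-106893682 for Utp4 and chr10:88826765-88826799 for Utp20. They lie at chr17:71616210-71616259 for Wdr43, chr11:17211540-17211574 for Pno1, chr11:3963955-3964004 for Pes1 and chr6:125131801-125131850 for Nop2. Those of Utp20 and Pno1 are on the minus strand and the others on the plus strand. Of the 7 genes, Mybbp1a, Utp4, Wdr43, Pes1 and Nop2 rose without WT replicate 1, and Utp20 and Pno1 were not called. That is 5 of the 20 higher genes with a promoter, 0 of the 2 lower and 2 of the 10 not called. CCGGAAG, searched on both strands, was in 10 of the 32 promoters (31.25%), against 19.9% of tested genes, and those 10 hold 7 higher genes, 1 lower gene (Heatr1) and 2 not called. TATAAA, searched on both strands, was in 3 of the 32, 9.38% against 9.26% of tested genes. AAGATGGCG, the core of a YY1 motif, was in 0 of the 32 on either strand and in 3.50% of tested genes. These matches describe the letters of the windows and are not evidence of binding.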

How the data were processed

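The authors deposited expected counts per gene (per library 10.1% to 13% of values are not whole) and TPM for 3 WT and 3 ACSL5 knockdown libraries. Tools in the submitters' processing notes are fastp, HISAT2, StringTie and DESeq2, with no version or role. The builds there, hg38 and GRCh38, are human, whereas the tables carry mouse Ensembl identifiers. The counting program and strand setting were not given. Counts were rounded, filtered with filterByExpr, scaled by TMM and compared by the quasi-likelihood test of edgeR 4.0.16 (robust, two-sided) in R 4.3.3, with Benjamini-Hochberg adjustment over all genes tested and a threshold of 0.05. CPM use the TMM factors of the 6 libraries throughout. Fold changes are ACSL5 knockdown minus WT. Positions, GC content and overlaps are from GENCODE M21. Alternatives were DESeq2 1.42.0 and its size factors, library totals, other filters, limma 3.58.1 (voom, and trend on log2 TPM), removal of trends with GC or length (lowess, span 0.3), a replicate block and leaving out each library. The main edgeR fits were also run on simulated counts. Those held no outlying library and no trend with length, so that check cannot speak to the effect of WT replicate 1. The members, lists, tests and the fit without WT replicate 1 were chosen with earlier results of these data known. Full values are given for the highest and lowest member of each step, members called lower, and members whose fits differ by over 0.5; Acsl5 and Myc are context, and the called extremes of each other list are named. The motifs and any further member or gene given with values were chosen after values were seen.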

Additional observations from a re-analysis of the deposited data

How the results depend on the processing

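With all 6 libraries no member was called in most settings, but DESeq2 called 3 members and removal of the length trend 4. Leaving out 1 library gave 0 to 27, where 27 is the fit without WT replicate 1. Over all genes the 6 libraries gave 727 calls with DESeq2, 879 with the length trend removed, 1 with library totals, 9 with limma-voom, 4 with no filter and 0 to 5193 when 1 library was left out. The members' median log2 fold change with 6 libraries was 0.13 with the GC trend removed, 0.16 with the length trend removed, 0.24 with library totals, 0.14 with limma-voom, 0.35 on log2(TPM + 0.1) and on log2(TPM + 1), 0.13 with no filter and 0.0898 to 0.22 with 1 library left out. Library totals and both TPM scales also moved the median of all genes, to 0.08, 0.30 and 0.26, so that the members stood 0.15, 0.05 and 0.09 above it, against 0.12 in the fit reported. Without WT replicate 1 the count of members called was 15 on log2(TPM + 0.1), 14 on log2(TPM + 1) and 17 to 30 with a further library left out. The count of all genes was 2544 and 2464 on the TPM scales (1525 higher and 1019 lower, 1459 higher and 1005 lower) and 2599 to 6188 with a further library left out. The median was 0.24 with the stricter or no filter, 0.23 with DESeq2 or its size factors, 0.29 and 0.27 with the GC and length trends removed, 0.25 with library totals, 0.27 and 0.26 on the TPM scales and 0.23 to 0.25 with a further library left out. Acsl5 was at 20.2% of WT by library totals, 21.99% in TPM (chosen after seeing the data) and 17.7% to 20.2% with 1 library left out.

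Adding WT replicate 1 turned the sign of Fbl (-0.26), Gar1 (-0.22), Polr1c (-0.14), Utp20 (0.0925), Wdr75 (-0.038), Heatr1 (0.0076), Pno1 (-0.029), Wdr12 (-0.25), Nop16 (-0.35) and Nip7 (-0.23). Wdr75 was also at -0.038 on both TPM scales, Bop1 at -0.045 with the GC trend removed, and Wdr12 at -0.033 without WT replicate 2 or knockdown replicate 2, within -0.033 to 0.0746 over the 5 libraries left out in turn. The causes were not tested. Of the 407 values of single members over the other 11 settings, 355 kept direction and call, 31 lost and 18 gained a call and 3 turned sign. Deviations of same-numbered WT and knockdown libraries from their group means correlated at -0.140, 0.052 and -0.221 across genes. These values cannot tell whether replicate numbers pair the libraries, because the WT mean holds WT replicate 1. WT replicates 2 and 3 gave near-equal values against knockdown replicates 1 (0.141 and 0.125), 2 (0.052 and 0.066) and 3 (-0.227 and -0.221). With the replicate block 0 members were called with 6 libraries (median 0.14), and 30 (26 higher, 4 lower) without WT replicate 1, where 5753 genes were called in all.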

Other observations

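Introns of ribosome biogenesis genes are known to hold small nucleolar RNAs. In the annotation 7 of the 37 genes hold 21 of them, in Nop56, Nop58, Dkc1, Ncl, Wdr43, Ppan and Gnl3. Of these small RNAs 20 had a row in the tables and 3 were above 0 in any library, none above 2 expected counts, so their levels could not be compared in these libraries.

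An earlier search of these same fold changes had picked the 7-base sites GAACTAC and AACTACA in 3' UTRs. They were in 3 of the 37 genes (Nop58, Ncl and Wdr12), 8.11%, against 13.3% of 12495 tested genes with an annotated 3' UTR. None of the 3 genes that fell, Npm1, Heatr1 and Ddx18, holds either site, but 3 genes are too few to compare with 13.3%.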
